A study of Mus musculus with 20 samples.

Results

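The genes described here encode the Slit ligands Slit1, Slit2 and Slit3, the Roundabout receptors Robo1, Robo2 and Robo3, the ligand netrin-1 (Ntn1), and the netrin receptors Dcc, Unc5c and Unc5d. They were taken by symbol, and all 10 were found among the 22556 genes of the stage matrix and in both knockout tables. The study sorted serotonin (5-HT) neurons marked by the fluorescent protein EYFP from C57BL/6 mice and sequenced their messenger RNA. It also mapped Pet-1, the product of Fev, with a Myc tag on chromatin of the embryonic hindbrain. The stage series consisted of 3 wild-type libraries each from E11.5 and E15.5 (E for embryonic day) and from postnatal days 1 to 3 (PN), amplified with the Clontech SMARTer kit. At E15.5 the knockout comparison set 3 Pet-1-/- libraries against 3 wild-type libraries, once with the Clontech kit and once with the NuGEN Ovation kit. The chromatin sample was 1 immunoprecipitation with 1 input, from tissue of Pet-1-/- embryos that carried the ePet-mycPet-1 and ePet-EYFP transgenes per the protocol, although another label calls the same sample wild type and the last age is E14.5 in one place and E15.5 in another. The ePet transgenes are driven by an enhancer of the Fev gene. For the sorted neurons the labels name only EYFP, and the sources used here give neither the promoter nor how many animals stood behind a library.

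Slit proteins are secreted and act through Robo receptors, which mostly turn growing axons and migrating neurons away. Netrin-1 is a secreted ligand that attracts axons through Dcc, and repels them where an Unc5 receptor takes part, alone or together with Dcc. In the embryonic hindbrain the floor plate at the ventral midline is a classical source of both Slits and netrin-1, and 5-HT neurons are born beside it before they send long axons through the brain and spinal cord. A neuron can carry both ligands and receptors of these families, so sorted neurons may hold either kind of transcript.

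Slit2 and Slit3 each host a copy of the same microRNA, miR-218, which is known to target Robo1 and Robo2. Its sequences are given because they tie 2 ligands to the receptors they act on, and they come from RefSeq (GRCm38.p6). The mature miR-218-5p is encoded at chr5:48223966-48223986 in Slit2 and at chr11:35616840-35616860 in Slit3, in both genes on the plus strand like the host. Capitals mark the seed, bases 2 to 8, which the 2 copies share, whereas the opposite arms differ in sequence and seed.
miR-218-5p (in both Slit2 and Slit3): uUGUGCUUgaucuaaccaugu
miR-218-1-3p (in Slit2): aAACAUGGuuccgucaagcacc
miR-218-2-3p (in Slit3): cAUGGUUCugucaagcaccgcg
The libraries were made from messenger RNA amplified by the kits named above, and mature microRNAs were not measured in them.

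Levels are given as FPKM, fragments per length of transcript, scaled to the mapped fragments, for libraries a, b and c of each stage, which are letters for unnumbered columns. Changes are differences of log2(FPKM + 1), which make the change of low genes look smaller, tested with limma in 1 fit over the 9 wild-type libraries. Calls needed a p, adjusted by Benjamini and Hochberg's method, of less than 0.05 and a change of 1.5-fold or more. Genes needed at least 1 FPKM in at least 3 libraries to be tested, which 7 of the 10 members and 11741 genes in all did. Slit3, Robo3 and Unc5c were under that limit. Nothing in the sources used here says that libraries came from separate animals, so the p-values measure only the spread between these libraries, which may be technical.

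The libraries carried the markers of 5-HT neurons. The summed FPKM of 8 such markers, each present at every stage, lay between 1046 and 1427 at E11.5, between 468 and 564 at E15.5 and between 485 and 731 at PN. Markers of other cells were also present. The radial glia sum was 150 to 235 FPKM at E11.5, 910 to 1686 at E15.5 and 327 to 958 at PN. Nearly all of it was Fabp7, with means of 178 ± 49.4, 1347 ± 399 and 563 ± 333 FPKM (SD, n = 3 each), whereas Sox2 fell to 6.66 ± 1.03 FPKM at E15.5, against 15.53 ± 5.87 FPKM at E11.5 (limma, adjusted p = 0.0326), and the list's median log2 change for E15.5 against E11.5 was -0.54. The microglia sum was 2.49 to 11.02, 6.55 to 24.8 and 102 to 969 FPKM at the same 3 stages, with 2, 4 and 7 of the 7 microglia markers averaging at least 1 FPKM. The astrocyte sum was 0.981 to 1.399 FPKM at E11.5, with S100b at 0, 17.0 to 40.8 at E15.5 and 17.3 to 29.9 at PN, with 0, 4 and 6 of 7 markers averaging at least 1 FPKM. The oligodendrocyte sum was 6.10 to 12.6 FPKM at E11.5, 14.7 to 72.3 at E15.5 and 13.2 to 17.0 at PN, and the sum of GABA and glycine neuron markers was 1.18 to 5.19, 1.42 to 3.46 and 5.61 to 13.6 FPKM at these stages. Among them Gad1, which makes GABA, averaged 0.00282 ± 0.00488, 1.62 ± 0.811 and 6.05 ± 1.92 FPKM and rose in both intervals, by 1.33 and 1.44 log2 units (limma, adjusted p = 0.0151 and 0.0145). Gad2, the only other tested gene of that list, averaged 2.60 ± 2.25, 0.729 ± 0.348 and 2.82 ± 1.80 FPKM. Its changes were -0.91 and 1.07 log2 units and did not pass (limma, adjusted p = 0.155 and 0.120). Slc32a1 and Slc6a5 stayed under 1 FPKM in all 9 libraries. The 4 floor plate markers summed to between 5.84 and 11.9 FPKM at E11.5, to between 15.6 and 21.5 at E15.5 and to between 4.18 and 13.9 at PN, and the motor neuron sum never passed 2.24 FPKM, with Mnx1 at 0 in all 9 libraries. The floor plate marker Foxa2 averaged 6.75 ± 4.12, 3.27 ± 1.11 and 1.26 ± 1.43 FPKM at these stages. Spon1 averaged 2.94 ± 0.995, 12.8 ± 3.36 and 5.71 ± 3.31 FPKM, and Shh and Corin also had higher means at E15.5 than at E11.5. Between libraries, Pearson's r of log2 values was 0.903 to 0.966 in a stage and 0.794 to 0.888 across stages, and FPKM sums ran from 619069 to 893306 per library. Depth is unknown, as the files used here hold no read numbers.

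Between E11.5 and E15.5 receptors of both systems changed. Robo1, Robo2 and Unc5d rose, Dcc fell, and none of the 3 tested ligands (Slit1, Slit2 and Ntn1) passed the test. This was 4 of the 7 members tested, beside 28.9% of all tested genes called in that interval. Between E15.5 and PN only Robo2 was called, higher at PN, beside 20.2% of all tested genes. For PN against E11.5, Robo2 and Unc5d were higher and Dcc lower, 3 of 7 beside 27.4%. The members' median log2 change was 0.87, -0.08 and 0.63 in these 3 comparisons, beside 0.11, 0.01 and 0.08 over all tested genes. With upper-quartile scaling the median of all genes for E15.5 against E11.5 was -0.02, with 1659 genes higher and 1688 lower in place of 2046 and 1348, and the same 4 members were called. The libraries of the compared stages did not overlap for 5, 5 and 4 of the 7 members, beside 42.3%, 42.2% and 40.3% of all tested genes. In the authors' deposited table of the stages, 6 of the 10 members were called for E15.5 over E11.5 (Slit2, Slit3, Ntn1, Robo1, Dcc and Unc5d). For PN over E15.5 it was 4 (Ntn1, Robo1, Robo2 and Unc5d). Beside these stand 34.0% of the 13453 and 28.5% of the 14109 genes that the authors tested in each interval. Of the members, Robo3 and Unc5c were not tested there in the first interval, nor Robo3 in the second. These are bulk samples, in which fewer cells of a type and less RNA per cell cannot be told apart.

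**Figure D1:**
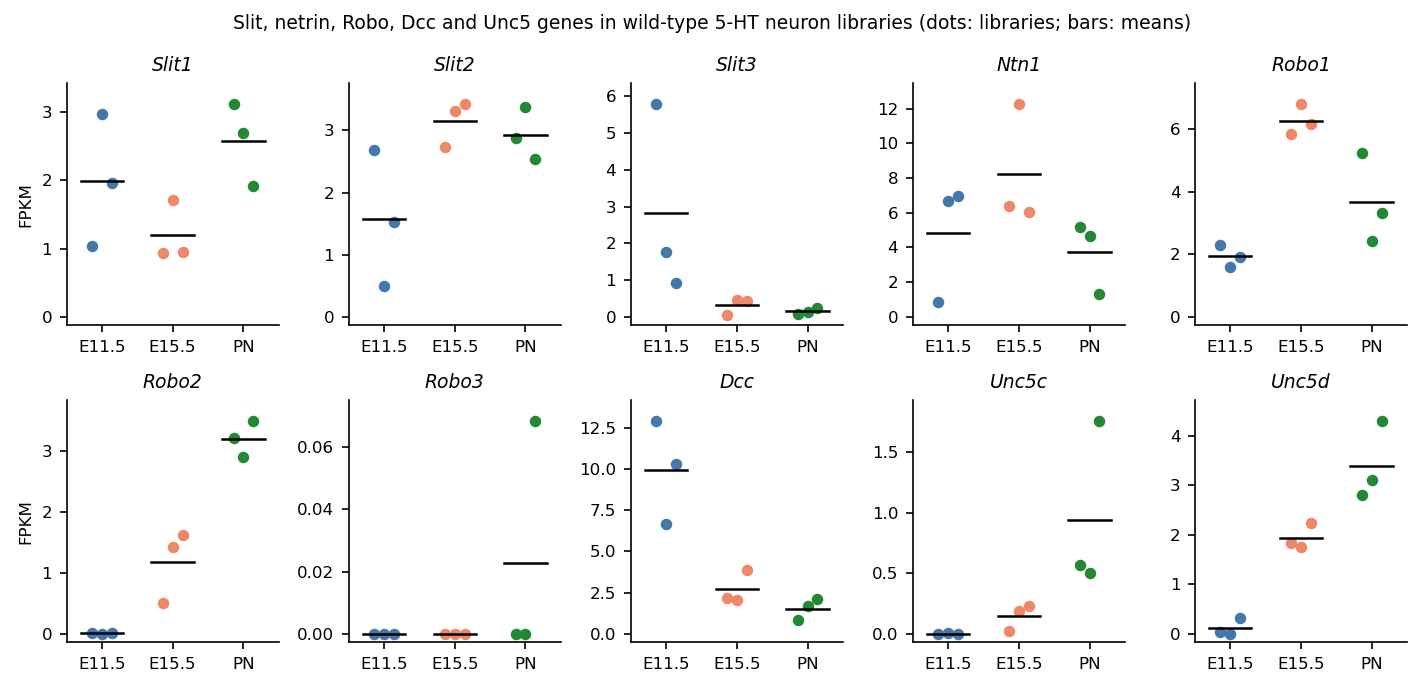
FPKM of each of the 10 genes in each of the 9 wild-type libraries (points, on a linear axis with its own range for each gene), with the mean of each stage as a bar, for E11.5, E15.5 and PN from left to right. Dcc stood highest at E11.5, with a mean of 9.95 FPKM, and Robo2 and Unc5d stood close to 0 there and above 1 FPKM on average at both later stages.

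Slit1, one of the 3 ligands of Robo receptors, was low at every stage. It had 1.03, 2.97 and 1.96 FPKM at E11.5, 0.935, 1.71 and 0.955 at E15.5, and 3.12, 2.70 and 1.92 at PN. Every PN library was above every E15.5 library, but by a small margin, and the E11.5 values overlapped both. The log2 change was 0.71 ± 0.35 (SE) for PN against E15.5 (limma, adjusted p = 0.180, 95% interval -0.06 to 1.47) and -0.41 ± 0.35 for E15.5 against E11.5 (limma, adjusted p = 0.417).

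Slit2, a Slit whose loss in mice misroutes forebrain axon tracts, had overlapping values at E15.5 and PN. It had 2.69, 0.487 and 1.53 FPKM at E11.5, 2.74, 3.32 and 3.42 at E15.5, and 2.88, 3.37 and 2.54 at PN. The E11.5 libraries were widely spread, and the highest of them lay just under the lowest E15.5 library. The log2 change for E15.5 against E11.5 was 0.79 ± 0.38 (SE; limma, adjusted p = 0.134, 95% interval -0.03 to 1.60). In the limma fits it passed the test only without library a of E11.5 (1.1, limma, adjusted p = 0.0473), and it was not among the genes called with all libraries. In the authors' deposited table the change passed, at 1.03 (q = 0.0385) on the log2 scale. For PN against E15.5 the log2 change was -0.08 (limma, adjusted p = 0.899).

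Slit3, the third Slit, had 5.79, 1.75 and 0.919 FPKM at E11.5, against 0.0451, 0.453 and 0.430 at E15.5 and 0.0619, 0.132 and 0.247 at PN. All E11.5 libraries were above all later ones, and library a stood well above the other libraries of that stage. Having reached 1 FPKM in too few libraries, the gene was not in the main test. With no filter on low values its log2 change was -1.35 for E15.5 against E11.5 (limma, adjusted p = 0.0699) and -1.53 for PN against E11.5 (limma, adjusted p = 0.0442). In the authors' deposited table, which compares group FPKM on a plain log2 ratio, Slit3 was 3.14 log2 units lower at E15.5 than at E11.5 (q = 0.0155).

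The make-up of the Slit transcripts differed by stage. Slit3 gave 60.9%, 33.6% and 20.8% of the summed Slit FPKM in the E11.5 libraries, 1.21%, 8.26% and 8.94% at E15.5 and 1.02%, 2.13% and 5.25% at PN. Slit2 gave 28.3%, 9.35% and 34.7% at E11.5, 73.6%, 60.6% and 71.2% at E15.5 and 47.5%, 54.4% and 54.0% at PN. Slit2 was the most abundant Slit in each E15.5 library and in PN libraries b and c, whereas Slit1 was in PN library a. FPKM are per length, so that these shares compare transcripts and not read numbers.

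Ntn1, the netrin of the floor plate and ventricular zone, was among the most abundant members and varied widely within each stage. It had 0.860, 6.69 and 6.96 FPKM at E11.5, 6.39, 12.3 and 6.03 at E15.5, and 5.19, 4.64 and 1.29 at PN. Library a of E11.5 and library c of PN stood far below the others of their stage, and library b of E15.5 far above. All PN libraries were below all E15.5 libraries. The log2 change was 0.87 ± 0.58 (SE) for E15.5 against E11.5 (limma, adjusted p = 0.286, 95% interval -0.40 to 2.13) and -1.03 ± 0.58 for PN against E15.5 (limma, adjusted p = 0.232, 95% interval -2.30 to 0.23). In the authors' deposited table both changes passed, at 0.82 (q = 0.0324) and -1.17 (q = 0.00160) on the log2 scale. The floor plate sums of the same libraries were 11.52, 11.9 and 5.84 FPKM at E11.5, 15.6, 21.5 and 18.3 at E15.5, and 4.43, 4.18 and 13.9 at PN. Foxa2 held most of this sum in E11.5 libraries a and b, and Spon1 in E11.5 library c and all later libraries. The E15.5 library with the most Ntn1 had the highest floor plate sum of its stage, while the PN library with the least Ntn1 also had the highest of its stage. The E11.5 library with the least Ntn1, library a, had a floor plate sum near the highest of its stage. That E15.5 library was also highest of its stage for the radial glia, astrocyte, oligodendrocyte and microglia sums (1686, 40.8, 72.3 and 24.8 FPKM). The part of other cells in the Ntn1 values was not tested.

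Robo1, a receptor for all 3 Slits, was highest at E15.5. It had 2.30, 1.60 and 1.92 FPKM at E11.5, 5.85, 6.80 and 6.16 at E15.5, and 5.23, 2.41 and 3.33 at PN. No library of one stage reached into another, so that each E15.5 library was above each PN library, and each PN library above each E11.5 library. Robo1 rose at E15.5 by 1.31 ± 0.34 log2 units over E11.5 (SE; limma, adjusted p = 0.0137). The later difference was -0.69 ± 0.34 for PN against E15.5 and did not pass (limma, adjusted p = 0.179, 95% interval -1.43 to 0.06). In the authors' deposited table that difference passed, at -0.78 (q = 0.0306) on the log2 scale. The test of the later against the earlier interval gave -1.996 ± 0.59 log2 units (limma, adjusted p = 0.0303), and Robo1 was the only one of the 7 tested members for which this difference passed, beside 22.6% of all tested genes. That call was lost without E15.5 library a, b or c (adjusted p = 0.0811, 0.101 and 0.0890, limma) and without PN library b or c (0.0669 and 0.0542).

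Robo2, the partner of Robo1 in most Slit responses, was almost absent at E11.5 and gained at each step. It had 0.0126, 0.00525 and 0.00827 FPKM at E11.5, 0.510, 1.42 and 1.61 at E15.5, and 3.2, 2.90 and 3.48 at PN. The stages did not overlap, and library a of E15.5 was well under the other libraries of that stage. Robo2 rose by 1.07 ± 0.31 log2 units at E15.5 over E11.5 (SE; limma, adjusted p = 0.0222), by 0.98 ± 0.31 at PN over E15.5 (limma, adjusted p = 0.0425) and by 2.05 ± 0.31 at PN over E11.5 (limma, adjusted p = 0.000412). The first of these calls was lost without E11.5 library b or without E15.5 library b or c (adjusted p = 0.0538, 0.0754 and 0.0872, limma). The second was lost without any 1 of its 6 libraries (adjusted p from 0.0571 to 0.154, limma), and also with a pseudocount of 0.1 FPKM (0.129) or median centring (0.0588). With a pseudocount of 0.1 FPKM, which shrinks low values less, the change over the whole span was 4.92 log2 units and that at E15.5 over E11.5 was 3.42. In the authors' deposited table Robo2 passed for PN over E15.5 (1.45, q = 0.00240), while its ratio for E15.5 over E11.5 was the highest of the members (7.08) with q = 0.381.

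Robo3, a receptor of commissural neurons that in mammals hardly binds Slits, was listed at 0 in 8 of the 9 libraries and at 0.0682 FPKM in library c of PN. Robo1 and Robo2 therefore made up nearly all Robo transcripts, and Robo2's share of their sum differed by stage. It was 0.545%, 0.326% and 0.429% at E11.5, 8.01%, 17.2% and 20.7% at E15.5 and 37.9%, 54.6% and 51.1% at PN.

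Dcc, the netrin receptor of attraction, moved the other way. It had 12.9, 6.66 and 10.3 FPKM at E11.5, 2.16, 2.06 and 3.88 at E15.5, and 0.838, 1.68 and 2.09 at PN. The E11.5 libraries stood clear of all others, while E15.5 and PN overlapped. Dcc fell by 1.56 ± 0.38 log2 units at E15.5 below E11.5 (SE; limma, adjusted p = 0.00968) and by 2.10 ± 0.38 at PN below E11.5 (limma, adjusted p = 0.00142). For PN against E15.5 the change was -0.54 ± 0.38 (limma, adjusted p = 0.339, 95% interval -1.37 to 0.28).

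Unc5d, a netrin receptor that also binds the membrane protein Flrt2, was low at E11.5 and present from E15.5 on. It had 0.0415, 0.00213 and 0.318 FPKM at E11.5, 1.84, 1.75 and 2.24 at E15.5, and 2.80, 3.11 and 4.29 at PN, with no overlap between stages. Unc5d rose by 1.401 ± 0.31 log2 units at E15.5 over E11.5 (SE; limma, adjusted p = 0.00548) and by 1.97 ± 0.31 at PN over E11.5 (limma, adjusted p = 0.000500), and these were 3.48 and 4.24 with a pseudocount of 0.1 FPKM. Its change for PN against E15.5 was 0.57 ± 0.31 (limma, adjusted p = 0.213, 95% interval -0.10 to 1.24). That change passed in the authors' deposited table, at 0.82 (q = 0.0415) on the log2 scale. Unc5c, a second receptor of netrin repulsion, had 0, 0.00810 and 0 FPKM at E11.5, 0.0267, 0.189 and 0.229 at E15.5, and 0.566, 0.506 and 1.75 at PN. Its 3 stages did not overlap either, but it was under the filter in the main test. With no filter its change for PN against E11.5 was 0.90 (limma, adjusted p = 0.0266).

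The 2 opposite directions showed in the make-up of the Dcc, Unc5c and Unc5d transcripts. Unc5c and Unc5d together gave 0.321%, 0.153% and 2.99% of the summed FPKM of Dcc, Unc5c and Unc5d at E11.5, 46.3%, 48.5% and 38.9% at E15.5, and 80.1%, 68.3% and 74.3% at PN. Dcc was the major netrin receptor transcript of these 3 genes in every E11.5 library, and an Unc5 receptor in every PN library. With Unc5a and Unc5b counted as well, all 4 Unc5 receptors gave 19.1%, 14.4% and 10.02% of Dcc and Unc5 FPKM at E11.5, 67.6%, 68.6% and 47.1% at E15.5, and 84.5%, 74.7% and 76.1% at PN. Unc5a had 2.97, 0.410 and 0.596 FPKM at E11.5, so Unc5 transcripts were not absent at that stage. Neo1, the closest relative of Dcc, is left out of these shares. It averaged 2.46 ± 1.85, 4.04 ± 0.868 and 8.60 ± 1.39 FPKM at E11.5, E15.5 and PN (SD, n = 3 each). The shares are a description of the levels above and carry no test of their own.

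**Figure D2:**
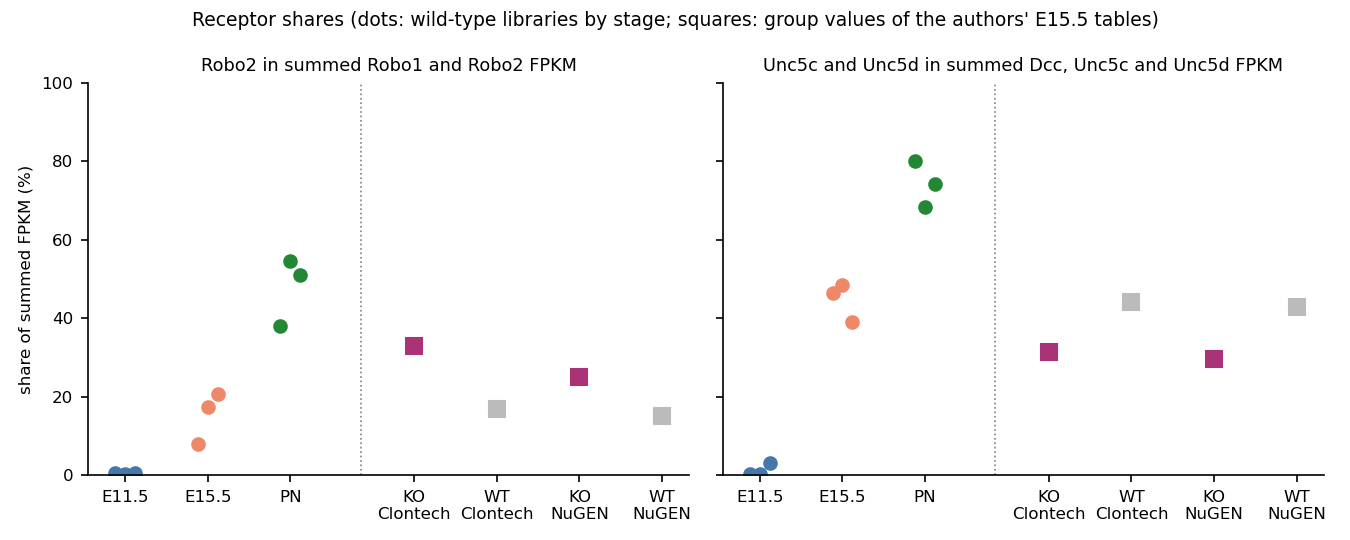
Share in percent of Robo2 in the summed FPKM of Robo1 and Robo2, and of Unc5c with Unc5d in the summed FPKM of Dcc, Unc5c and Unc5d, as 1 point per wild-type library at E11.5, E15.5 and PN and 1 point per group for Pet-1-/- and wild type of each kit. In the stage series the highest Robo2 share was 0.545% at E11.5 and the lowest 37.9% at PN, and the share of Unc5c with Unc5d was at most 2.99% at E11.5 and at least 68.3% at PN.

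**Figure D3:**
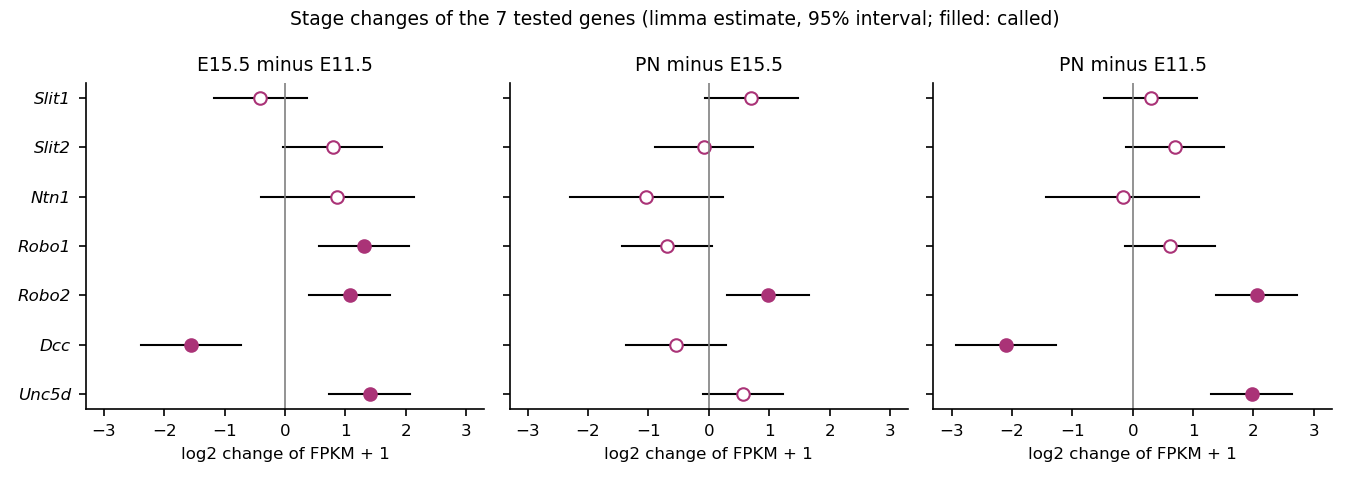
Log2 change of log2(FPKM + 1) with its 95% interval (limma, 3 libraries per stage) for the 7 tested members, for E15.5 against E11.5, PN against E15.5 and PN against E11.5, with called changes filled. Dcc lies left of 0 and Robo2 and Unc5d right of it over the whole span.

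Ranked by mean FPKM, the order of the 10 genes differed between stages. At E11.5 Dcc was first (9.95 ± 3.12, SD, n = 3), followed by Ntn1, Slit3, Slit1, Robo1 and Slit2, whose neighbours in this order overlapped. Below a gap came Unc5d, Robo2, Unc5c and Robo3. At E15.5 Ntn1 (8.23 ± 3.5) and Robo1 (6.27 ± 0.482) overlapped at the top and stood apart from Slit2, Dcc and Unc5d, then came Slit1 with Robo2, then Slit3 with Unc5c, and last Robo3 at 0. At PN the 8 genes from Ntn1 (3.71 ± 2.11), Robo1 (3.66 ± 1.44) and Unc5d (3.40 ± 0.789) through Robo2, Slit2, Slit1 and Dcc to Unc5c each overlapped the next one, and only Slit3 and Robo3 stood below a gap. Dcc was thus first at E11.5 and seventh at PN, a place it shared within the spread with its neighbours.

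Robo2 had the smallest adjusted p of the members, and the genes whose log2 values followed it most closely over the 9 libraries were sought among the 11740 other tested genes. They were Chodl, which encodes a lectin-like membrane protein (Pearson r = 0.995), Opcml, which encodes a cell adhesion protein of the immunoglobulin family (r = 0.993), and 9430021M05Rik (r = 0.992). Chodl had 0.0269, 0.0082 and 0.049 FPKM at E11.5, 1.04, 2.11 and 2.17 at E15.5, and 5.38, 5.41 and 6.85 at PN. The 9 points fall into 3 stages, and the correlations describe that step pattern.

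Some other ligands and receptors of these systems changed by stage, and every change given for the pathway lists below passed the same limma call. Of 11 tested members of a list of 18, 4 were higher and 0 lower at E15.5 than at E11.5 (list median 0.57 log2 units, all tested genes 0.11), 2 were higher and 2 lower at PN than at E15.5 (medians -0.06 and 0.01), and 5 were higher and 1 lower at PN than at E11.5 (medians 0.88 and 0.08). These are 36.4%, 36.4% and 54.5% of the 11, beside 28.9%, 20.2% and 27.4% of all tested genes called in either direction. Flrt3 and Nell2 peaked at E15.5. Flrt3, a membrane protein that binds Unc5 receptors and Robo1, averaged 9.61 ± 2.03, 48.1 ± 16.7 and 13.4 ± 5.12 FPKM at E11.5, E15.5 and PN (SD, n = 3 each), and rose by 2.18 and then fell by 1.77 log2 units. Nell2, a secreted ligand of Robo3 in commissural axons, averaged 13.1 ± 4.24, 54.5 ± 3.89 and 18.3 ± 1.85 FPKM, and rose by 2.01 and fell by 1.53. For both genes the later interval also differed from the earlier one (limma, adjusted p = 0.00128 and 0.000749). Flrt2, the ligand of Unc5d, rose by 0.93 at E15.5 over E11.5, and Flrt1 by 1.14 at PN over E15.5. Dscaml1, a relative of the netrin-binding adhesion protein Dscam, averaged 0.0295 ± 0.0186, 1.56 ± 0.612 and 5.41 ± 2.69 FPKM and rose in both intervals (1.29 and 1.26). Over the whole span Dscaml1 rose by 2.55, Dscam by 1.60 and Neo1, the closest relative of Dcc, by 1.59, and Rgma, a ligand of Neo1, fell by 1.80.

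Among 30 intracellular partners of Robo and netrin receptors, 29 were tested. Of these, 3 were higher and 2 lower at E15.5 than at E11.5, 1 and 1 at PN against E15.5, and 2 and 2 at PN against E11.5. These are 17.2%, 6.9% and 13.8% of the 29, each below the 28.9%, 20.2% and 27.4% of all tested genes. The list medians were -0.06, 0.34 and 0.12 log2 units. Ablim1, an actin-binding protein whose worm relative acts downstream of netrin receptors, averaged 0.406 ± 0.594, 2.63 ± 0.691 and 6.02 ± 0.242 FPKM and rose by 1.43 at E15.5 and by 2.40 over the whole span. Nck2, an adaptor closely related to the Dcc-binding Nck1, rose by 1.29 at E15.5 and then fell by 2.07 at PN, while the actin regulator Vasp and the kinase Abl1 fell by 1.42 and 1.30 at E15.5. Ndfip1, an adaptor of ubiquitin ligases that lowers Robo1 protein, rose by 2.11 at PN over E15.5, with means of 163 ± 77.3, 82.5 ± 36.3 and 362 ± 167 FPKM at the 3 stages. Over the whole span Enah, an actin regulator related to Vasp, and the kinase Src fell by 1.28 and 1.12, and the third relative Evl rose by 0.94.

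Heparan sulphate chains bind Slits and netrin-1 and serve Robo signalling as co-receptors. Of 16 genes for their core proteins and enzymes, with Dag1, 14 were tested, and 4 were higher and 1 lower at E15.5 than at E11.5, 1 higher and 2 lower at PN than at E15.5, and 5 higher and 2 lower at PN than at E11.5. These are 5, 3 and 7 of 14, or 35.7%, 21.4% and 50%, beside the 28.9%, 20.2% and 27.4% of all tested genes, and the middle share is near that background. The list medians were 0.28, 0.45 and 0.41 log2 units. The largest changes were those of the core protein Gpc3 and the sulphotransferase Hs6st2. Gpc3 averaged 0.0297 ± 0.0231, 10.7 ± 4.01 and 5.47 ± 0.718 FPKM at the 3 stages and rose by 3.44 at E15.5, and Hs6st2 averaged 0.0702 ± 0.0369, 10.3 ± 3.96 and 20.6 ± 4.61 FPKM and rose by 3.35. Over the whole span Hs6st2, Sdc2 and Gpc3 rose by 4.31, 2.81 and 2.65, while Gpc2 fell by 2.73. At PN Sdc1 fell by 1.73 and Gpc2 by 1.41 below E15.5, and Sdc4 rose by 0.90. Markers of astrocytes, oligodendrocytes and microglia moved with stage in the same libraries, as given above. So did Gad1 among those of GABA neurons and Fabp7, Hes5, Nes and Sox2 among those of radial glia, not all in the same direction. Hes5 rose by 2.08 log2 units at PN over E15.5, and Nes fell by 2.15 over the whole span (limma, adjusted p = 0.0257 and 0.00429). The part of such cells in the changes of the members and of these lists was not tested.

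The knockout comparison asks which transcripts differ at E15.5 when Pet-1 is missing. The tables hold 1 FPKM value per group and the authors' own p and q, and calls needed q below 0.05, a change of 1.5-fold or more and a level of 1 FPKM or more in Pet-1-/- or wild type. The targeted gene, Fev, was at 0.422 FPKM in Pet-1-/- and 31.1 FPKM in wild type with the Clontech kit, and at 0.308 FPKM in Pet-1-/- and 34.9 FPKM in wild type with the NuGEN kit. Of the 10 members, Slit2 and Robo2 were called with both kits in the same direction, Slit2 lower and Robo2 higher in Pet-1-/-. Of all genes that the authors tested, 2.33% of 13223 were called with the Clontech kit, 10.5% of 13372 with the NuGEN kit, and 0.769% with both in the same direction (0.298% higher and 0.471% lower in Pet-1-/-, of 12749 genes). By direction, 0.802% were higher and 1.53% lower in Pet-1-/- with the Clontech kit, and 6.75% higher and 3.75% lower with the NuGEN kit. Of these tested genes, 10939 (Clontech) and 11019 (NuGEN) had 1 FPKM or more in a group, and the others could not be called. All these shares therefore run low for genes above that level, which 7 members reached with the Clontech kit and 6 with the NuGEN kit. The values below come from the authors' deposited tables, and the Clontech wild-type libraries are also the E15.5 libraries of the stage series.

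Slit2 was at 1.52 FPKM in Pet-1-/- and 3.35 FPKM in wild type with the Clontech kit, a log2 ratio of -1.14 in the authors' deposited table (q = 0.0169). With the NuGEN kit it was at 1.71 FPKM in Pet-1-/- and 3.17 FPKM in wild type, a log2 ratio of -0.89 in the authors' deposited table (q = 0.00990). At the stricter q of 0.01 the Clontech call of Slit2 was lost and the NuGEN call held.

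Robo2 was at 3.10 FPKM in Pet-1-/- and 1.31 FPKM in wild type with the Clontech kit, a log2 ratio of 1.24 in the authors' deposited table (q = 0.00723). With the NuGEN kit it was at 4.18 FPKM in Pet-1-/- and 2.02 FPKM in wild type, a log2 ratio of 1.05 in the authors' deposited table (q = 0.00206). Robo1 was not called with either kit, at 6.31 FPKM in Pet-1-/- and 6.47 FPKM in wild type (Clontech, q = 0.967 in the authors' deposited table) and at 12.6 and 11.4 FPKM in Pet-1-/- and wild type (NuGEN, q = 0.742). Robo2's share of the summed Robo1 and Robo2 FPKM was 33.0% in Pet-1-/- and 16.9% in wild type with the Clontech kit, and 24.9% in Pet-1-/- and 15.1% in wild type with the NuGEN kit.

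Ntn1 was called with 1 kit only. It was at 1.67 FPKM in Pet-1-/- and 7.41 FPKM in wild type with the Clontech kit, a log2 ratio of -2.15 in the authors' deposited table (q = 0.00391). With the NuGEN kit it was at 2.38 FPKM in Pet-1-/- and 3.17 FPKM in wild type, a log2 ratio of -0.41 in the authors' deposited table (q = 0.330). Both kits had the lower value in Pet-1-/-, and the difference between the kits was not tested. The floor plate sum, from the authors' deposited tables, was 11.3 FPKM in Pet-1-/- and 18.9 FPKM in wild type with the Clontech kit, and 10.2 and 11.6 FPKM in Pet-1-/- and wild type with the NuGEN kit. In both tables Spon1 held most of this sum, and the members did not all go one way, since Foxa2 was at 1.51 FPKM in Pet-1-/- and 0.856 FPKM in wild type with the NuGEN kit in the authors' deposited table (q = 0.258). The radial glia sum was 462 FPKM in Pet-1-/- and 1299 FPKM in wild type with the Clontech kit, and 289 and 140 FPKM in Pet-1-/- and wild type with the NuGEN kit. Nearly all of this sum was Fabp7 in both tables, at 284 FPKM in Pet-1-/- and 135 FPKM in wild type with the NuGEN kit. With that kit Sox2 and Notch1 were also higher in Pet-1-/-, while Nes, Pax6 and Hes5 were lower and under 1 FPKM. None of these NuGEN changes but that of Fabp7 was called. The astrocyte sum was 8.499 FPKM in Pet-1-/- and 32.1 FPKM in wild type with the Clontech kit, and 9.24 and 11.2 FPKM in Pet-1-/- and wild type with the NuGEN kit. Of its markers Slc1a3 was called lower in Pet-1-/- with both kits. Slc1a2 was higher without a call, at 3.26 and 2.51 FPKM (Clontech) and 5.24 and 4.99 FPKM (NuGEN) in Pet-1-/- and wild type. With the NuGEN kit Aqp4 and S100b were also higher in Pet-1-/-, under 1 FPKM and not called. The sum of the 5-HT markers, Fev among them, was lower in Pet-1-/- with both kits, at 244 FPKM in Pet-1-/- and 512 FPKM in wild type (Clontech) and at 428 and 1049 FPKM in Pet-1-/- and wild type (NuGEN). With each kit 5 of these 8 markers were called lower (Fev, Tph2, Slc6a4, Slc18a2 and Ddc). Gata2, Gata3 and Lmx1b were called with neither kit. In Pet-1-/- and wild type, Gata2 was at 30.6 and 33.5 FPKM (Clontech) and at 32.6 FPKM in both groups (NuGEN). Gata3 was at 137 and 164 FPKM (Clontech) and at 321 and 406 FPKM (NuGEN). Lmx1b was at 8.19 and 4.89 FPKM (Clontech) and at 2.15 and 2.54 FPKM (NuGEN). The oligodendrocyte sum was 29.5 FPKM in Pet-1-/- and 35.3 FPKM in wild type with the Clontech kit, and 17.7 and 11.4 FPKM in Pet-1-/- and wild type with the NuGEN kit. The microglia sum was 2.06 and 11.9 FPKM (Clontech) and 0.632 and 1.71 FPKM (NuGEN) in Pet-1-/- and wild type. In the Clontech table each of these sums was lower in Pet-1-/-. In the NuGEN table the radial glia and oligodendrocyte sums were higher in Pet-1-/- and the others lower. The part of any of these cells in the values of Ntn1, Slit2 and Robo2 was not tested.

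The other members were not called with either kit. Dcc was at 4.56 FPKM in Pet-1-/- and 2.93 FPKM in wild type (Clontech, q = 0.0939 in the authors' deposited table) and at 8.0 and 5.41 FPKM in Pet-1-/- and wild type (NuGEN, q = 0.0929). Both Dcc values were higher in Pet-1-/- by similar log2 ratios, 0.64 and 0.57 in the authors' deposited tables, without passing. Unc5d was at 1.63 FPKM in Pet-1-/- and 2.12 FPKM in wild type (Clontech, q = 0.528 in the authors' deposited table) and at 2.55 and 3.54 FPKM in Pet-1-/- and wild type (NuGEN, q = 0.212). Unc5c was at 0.452 FPKM in Pet-1-/- and 0.186 FPKM in wild type (Clontech, q = 0.276 in the authors' deposited table) and at 0.802 and 0.503 FPKM in Pet-1-/- and wild type (NuGEN, q = 0.167). Unc5d was thus lower and Unc5c higher in Pet-1-/- with both kits, none of them past the threshold. The share of Unc5c with Unc5d in the summed FPKM of Dcc, Unc5c and Unc5d was 31.3% in Pet-1-/- and 44.1% in wild type with the Clontech kit. With the NuGEN kit it was 29.5% in Pet-1-/- and 42.8% in wild type, so lower in Pet-1-/- with both kits but with no test. Counted over all 4 Unc5 receptors it was 47.6% in Pet-1-/- and 58.2% in wild type (Clontech), and 42.7% in Pet-1-/- and 51.4% in wild type (NuGEN). Neo1 is left out of these shares. It was at 5.30 FPKM in Pet-1-/- and 4.19 FPKM in wild type (Clontech, q = 0.495 in the authors' deposited table) and at 5.87 and 5.17 FPKM in Pet-1-/- and wild type (NuGEN, q = 0.665). Slit1 was at 1.46 FPKM in Pet-1-/- and 1.05 FPKM in wild type (Clontech, q = 0.618 in the authors' deposited table) and at 0.790 and 0.641 FPKM in Pet-1-/- and wild type (NuGEN, q = 0.687). Slit3 stayed under 1 FPKM in all 4 groups, and Robo3 was at most 0.0670 FPKM.

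**Figure D4:**
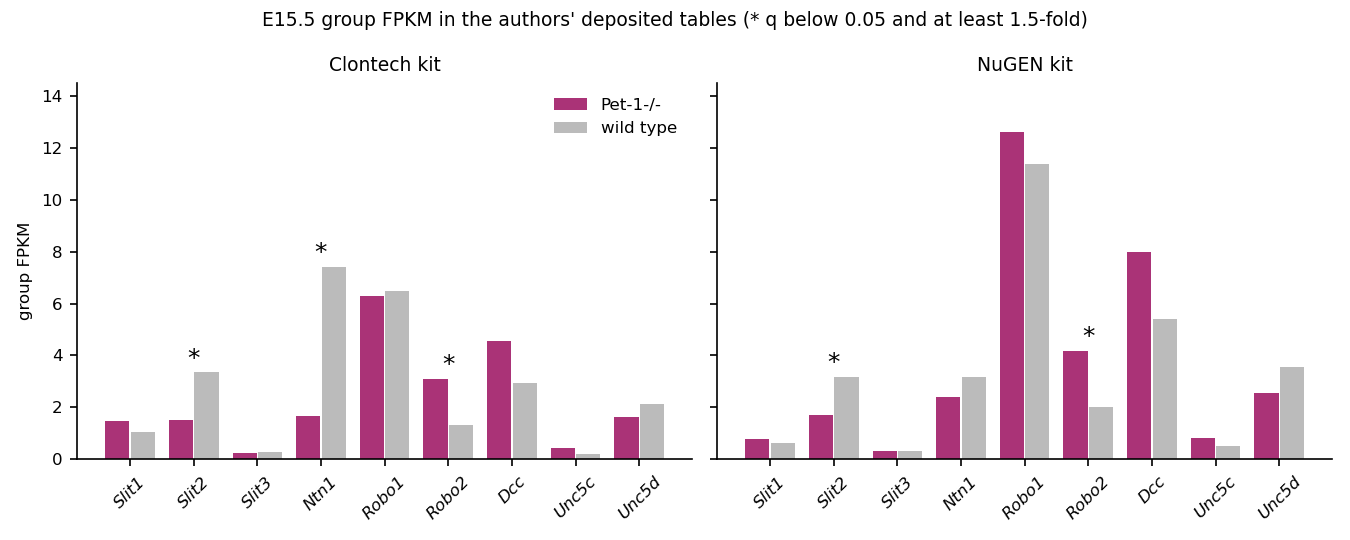
Group FPKM (bars) of the 9 genes other than Robo3 in Pet-1-/- and wild type at E15.5, for the Clontech and the NuGEN kit, from the authors' deposited tables, with 1 value per group and no error, and an asterisk over called changes. Slit2 is lower and Robo2 higher in Pet-1-/- with both kits, and the Ntn1 values of 1.67 FPKM in Pet-1-/- and 7.41 FPKM in wild type are those of the Clontech kit.

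No gene of the 3 pathway lists was called with both kits, and 12 of the 64 listed genes were called with 1 kit. Of the listed genes tested with 1 FPKM or more in a group, 4 of 52 were called with the Clontech kit and 8 of 53 with the NuGEN kit. Beside these stand the 2.33% and 10.5% of all tested genes called with each kit and the 0.769% called with both. These shares also count genes under 1 FPKM. With the Clontech kit Dscam (3.27 FPKM in Pet-1-/- and 1.36 FPKM in wild type), Ablim1 (5.69 and 2.71 FPKM), the guanine nucleotide exchange factor Trio (3.96 and 2.28 FPKM) and Sdc3 (38.1 and 22.8 FPKM) were higher in Pet-1-/- in the authors' deposited table. With the NuGEN kit Flrt1 (17.0 FPKM in Pet-1-/- and 7.0 FPKM in wild type), Ntng1, a membrane-bound relative of netrin (2.19 and 0.858 FPKM), and Nck2 (26.4 and 16.0 FPKM) were higher in Pet-1-/- in the authors' deposited table. Hs6st2 (10.4 FPKM in Pet-1-/- and 33.3 FPKM in wild type), Ext2, Cap1, Cap2 and Usp33 were lower in Pet-1-/- with that kit in the authors' deposited table. Ntng1 had like log2 ratios with both kits, 1.35 with each, with q = 0.213 for the Clontech kit in the authors' deposited table.

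Of the 10 genes only Ntn1 held a peak of Myc-tagged Pet-1 within its RefSeq span (mm10, GRCm38.p6). The first, at chr11:68384502-68386474, covered 1973 bases and ended 352 bases inside the higher-coordinate end of the Ntn1 span (chr11:68209364-68386826). Its score in the authors' deposited list was 235.59, rank 531 of 4934 peaks whose median was 88.3. The second, at chr11:68215821-68216646, lay toward the other end of the gene with a score of 83.31, rank 2704. No other RefSeq gene overlapped either peak, although the span of Stx8 ended within 20 kb of the second. A peak stood in the span of 21.1% of 21896 protein-coding genes, and of 24.2% of those at least 100 kb long, a class that holds 9 of the 10 members. The 1 of 10 found here is a lower share than either, but the genes are few and the difference was not tested. A peak within 1 kb of an end of the span, as the first one is, was found for 18.4% of protein-coding genes.

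Slit2 and Robo2, the members called with both kits, had no peak near them. The nearest peak to the Slit2 span (chr5:47981291-48307735) was 2123 kb away, and that to the Robo2 span (chr16:73891976-75447443) 2854 kb away. For the remaining members the nearest peak was between 55.3 kb (Robo3) and 5254 kb (Robo1) from the span. Peaks come from 1 immunoprecipitation, so how they would vary between samples is not known.

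Pet-1 is an ETS factor, a family that binds around the bases GGAA. The 250 bases before the annotated start of Slit2 and Robo2 are printed because these genes were called in Pet-1-/- with both kits, and those of Robo1 because it was not called with either kit. They are RefSeq sequence (GRCm38.p6), each written 5′ to 3′ on the strand of its gene, and capitals mark GGAA or its reverse complement TTCC.
Slit2, chr5:47982905-47983154, plus strand: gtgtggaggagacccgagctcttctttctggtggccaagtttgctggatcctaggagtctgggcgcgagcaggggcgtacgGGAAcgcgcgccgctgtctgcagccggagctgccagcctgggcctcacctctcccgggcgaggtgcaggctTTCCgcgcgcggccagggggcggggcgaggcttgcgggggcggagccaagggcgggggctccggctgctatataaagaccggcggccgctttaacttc
Robo2, chr16:74411826-74412075, minus strand: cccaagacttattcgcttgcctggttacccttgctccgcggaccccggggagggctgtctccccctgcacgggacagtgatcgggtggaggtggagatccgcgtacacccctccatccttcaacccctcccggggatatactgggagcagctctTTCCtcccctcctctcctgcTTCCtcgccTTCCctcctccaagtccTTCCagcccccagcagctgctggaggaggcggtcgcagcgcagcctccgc
Robo1, chr16:72662899-72663148, plus strand: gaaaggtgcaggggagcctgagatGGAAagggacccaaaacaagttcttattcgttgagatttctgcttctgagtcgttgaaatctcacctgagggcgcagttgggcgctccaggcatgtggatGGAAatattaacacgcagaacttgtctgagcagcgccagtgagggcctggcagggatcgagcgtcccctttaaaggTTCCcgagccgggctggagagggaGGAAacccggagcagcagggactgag
The Slit2 window is 69.6% G and C and holds 2 matches, the Robo2 window is 65.6% G and C and holds 4, all of them as TTCC on the strand shown, and the Robo1 window is 56% G and C and also holds 4. Of 32851 such windows 93.4% hold at least 1 match, with a median of 3, so the matches do not set these windows apart. The longer form CGGAAG, searched on both strands and containing GGAA, occurs in 13.6% of all windows and in 0 of the 8 windows that were found for 6 members (Robo1, Robo2, Robo3, Slit2, Slit3 and Unc5c). The Robo2 start shown is the one 519850 bases from the far end of the gene, close to the 518607 bases of the locus that the authors' deposited table gives for Robo2, whereas the RefSeq span of all its forms is 1555468 bases. Likewise the Robo1 start shown is 384343 bases from the far end, close to the 382952 bases of the authors' locus, whereas its RefSeq span is 1019974 bases. The authors' FPKM for Robo2 and Robo1 were thus assigned to gene models of the shorter forms, and other starts were not measured separately.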

How the data were processed

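Sorted 5-HT neuron libraries were grouped by their titles, and the 10 members and all gene lists were chosen with earlier results of these data known. FPKM were deposited by the authors, for each stage library and for each knockout group, with Cuffdiff columns per the file headers. The log2 ratios, p-values and q-values of the knockout come from the authors' deposited tables. Peaks with a score were deposited by the authors for mm10. The submitters' processing notes name TopHat2, Cufflinks, BWA and MACS 1.4.2, and give no role to the builds mm9 and mm10. Here, limma 3.58.1 (R 4.3.3) was run with a mean-variance trend on log2(FPKM + 1) of 9 libraries (6 residual degrees of freedom), adjusted over 11741 genes and tested on simulated data. Failed estimates, 14 genes with status HIDATA and 0 in a library, were left out. Of the per-sample columns, 3 fitted no sample's labels and stayed out. No kit is named for the E15.5 columns. Over genes, 5% to 95% of the ratios of their mean to the Clontech wild-type value lay between 0.874 and 1.19, a narrower range than to the Clontech Pet-1-/- (0.712 to 1.501), NuGEN wild type (0.482 to 2.06) or NuGEN Pet-1-/- values (0.505 to 1.73), and Clontech is the kit of the stage series in the protocol. Named were all members, up to 4 called genes with the largest change per list and interval, all list genes called in the knockout, and the 3 genes most like Robo2. Levels were not compared between the kits' tables, which were scaled apart. Of the lists' genes, 1 (Draxin) was not found, and 2 marker genes are not reported here and entered no sum. Alternatives were another pseudocount, other filters and scalings, a stricter q, other peak limits and leaving out each library.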

Additional observations from a re-analysis of the deposited data

Results flagged for a closer look

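The later interval of Robo1 (PN against E15.5) differed from its earlier interval (E15.5 against E11.5) by -1.996 log2 units in a test of that difference (limma, adjusted p = 0.0303). All 3 E15.5 libraries were above all 3 PN and all 3 E11.5 libraries. The intervals share the E15.5 libraries, so a high value there moves both in opposite directions. Groups of 3 libraries are too small for a test of single outlying libraries.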

How the results depend on the processing

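Without 1 library at a time, members called numbered 3 to 5 for E15.5 against E11.5 (4 with all), 0 to 0 for PN against E15.5 (1), 3 to 3 for PN against E11.5 (3) and 0 to 1 for the difference between intervals (1). With a filter at 5 FPKM, which tests fewer members, the counts were 2, 0 and 1 for the 3 comparisons, and with no filter 5 for PN against E11.5, where Slit3 and Unc5c were added. The single call for PN against E15.5 fell to 0 with a pseudocount of 0.1 FPKM and with median centring, and that of the interval difference to 0 with upper-quartile scaling (Robo1, adjusted p = 0.0546, limma). The cause of these losses was not tested. Uncalled changes that turned sign without 1 library were Ntn1 for PN against E11.5 (-0.86 to 0.29) and the interval difference of Robo2 (-0.58 to 0.21). At a peak score of at least 100 there was 1 peak in Ntn1 in place of 2, and a margin of 10 kb added none. Over all genes, calls ran from 1141 to 1654 for PN against E15.5 and from 1400 to 2814 for the interval difference without 1 library, beside 2370 and 2658 with all. No paired analysis was possible because the columns carry no replicate number of the labels. Unknown depth means that no counting error can be given for members under 1 FPKM.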
